A study of Mus musculus with 6 samples.

Results

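The genes that drive DNA replication and cell division were followed in regulatory T cells (Tregs) of mice with and without myelin oligodendrocyte glycoprotein (MOG). The set holds 32 genes chosen by name, and all 32 were found by symbol among the 23725 genes of the count table and the reads-per-million (RPM) table. Tregs are CD4 T cells that restrain immune responses, and MOG is a protein on the surface of the myelin sheath. The cells came from lymph nodes of C57Bl/6 mice that had all been immunised with MOG, so both genotypes met the antigen, and the genotypes were wild type (WT) and a knockout of MOG in the whole animal (MOG KO). There were 3 libraries per genotype, written here WT1 to WT3 and KO1 to KO3, each made from 500 cells. The sources used here do not give the age of the mice, the dose and time of immunisation or the gate used for sorting. Whether each replicate number is its own mouse is not stated, and p-values therefore refer to the spread among these libraries, which may in part be technical.

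A dividing cell first licenses its replication origins with a ring of minichromosome maintenance proteins (Mcm2 to Mcm7), then copies its DNA with the sliding clamp Pcna and nucleotides supplied by ribonucleotide reductase and thymidylate synthase. Entry into mitosis is driven by Cdk1 with A-type and B-type cyclins and by the Plk1 and Aurora kinases, and exit needs the anaphase-promoting complex with its activator Cdc20. Most of these genes are nearly silent in resting lymphocytes and are switched on together by antigen and interleukin 2, and Tregs are known to include a cycling fraction in the steady state.

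Promoters of cell cycle genes are known for shared elements, and these were looked for in the windows from 250 bases before to 50 bases after each gene's start (RefSeq, build GRCm38.p6). Windows were found for 26 of the 32 genes, 27 windows in all since Mcm7 had 2. Both strands were searched for the CCAAT box (CCAAT), bound by NF-Y, for the cell cycle homology region CHR (TTTGAA or TTCGAA), bound by the DREAM and MuvB complexes, and for the E2F element (TTTCGCGC, TTTGGCGC, TTTCCCGC or TTTGCCGC). A CCAAT box was found in 24 of 27 windows (88.9%) against 37.4% of all 32851 promoter windows, a CHR in 15 of 27 (55.6%) against 19.2%, and an E2F element in 5 of 27 (18.5%) against 2.26%. Matches of different elements shared bases in 1 of the 27 windows. Among the mitosis and chromosome genes, 13 of 17 windows held a CHR and 1 of 17 (Cdk1) an E2F element. Among the replication genes, 2 of 10 windows held a CHR and 4 of 10 an E2F element, namely those of Mcm3, Mcm5, Mcm6 and Mcm7. The 180 bases before the start are given for a pair of genes from each class. Their values are described in full further on and no annotated exon lies in the stretch. The stretches of Mcm2, Mcm3 and 1 window of Mcm7 met the same terms and are not printed. That of Mcm2 holds a CHR and no E2F letters, and that of Mcm7 neither. The E2F letters of Mcm3 lie after its start, so the printed replication pair does not stand for the whole class. Capitals mark every match to the CCAAT, CHR or E2F letters on either strand, and a match describes the letters, not a bound site.
Mki67: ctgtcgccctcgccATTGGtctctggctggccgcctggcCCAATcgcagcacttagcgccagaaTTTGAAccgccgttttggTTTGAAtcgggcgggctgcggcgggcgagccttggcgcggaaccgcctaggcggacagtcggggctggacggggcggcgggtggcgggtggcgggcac
Top2a: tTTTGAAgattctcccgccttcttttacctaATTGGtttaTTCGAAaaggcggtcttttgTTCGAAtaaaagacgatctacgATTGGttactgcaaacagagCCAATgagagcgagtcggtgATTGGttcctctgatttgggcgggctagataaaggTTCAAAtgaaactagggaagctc
Mcm5: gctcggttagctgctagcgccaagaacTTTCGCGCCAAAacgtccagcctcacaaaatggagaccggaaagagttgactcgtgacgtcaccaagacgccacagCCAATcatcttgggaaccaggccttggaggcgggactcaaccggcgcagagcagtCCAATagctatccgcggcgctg
Mcm6: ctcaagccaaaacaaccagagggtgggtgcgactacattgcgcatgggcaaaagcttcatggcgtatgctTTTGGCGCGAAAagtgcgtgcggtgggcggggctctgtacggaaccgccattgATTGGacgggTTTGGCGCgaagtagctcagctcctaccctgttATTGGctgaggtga
The stretch of Mki67 lies at chr7:135716380-135716559 on the minus strand, that of Top2a at chr11:99024190-99024369 on the minus strand, that of Mcm5 at chr8:75109329-75109508 on the plus strand and that of Mcm6 at chr1:128359706-128359885 on the minus strand. Mki67 has CHR letters starting 116 and 98 bases before its start and Top2a starting 179, 140, 120 and 23 bases before. The printed stretches of Mcm5 and Mcm6 hold E2F and CCAAT letters and no CHR. The Mcm6 stretch has E2F letters starting 110 and 47 bases before the start, the first of which runs on into a match on the other strand.

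Gene counts totalled 2717969 to 4472549 per library, so 0 counts allow up to 0.671 to 1.10 RPM, a floor of 3 counts that covers counting error only. Genes at 10 RPM or more are termed present, and 2701 genes (WT3) to 4440 genes (WT2) were present per library. Of 9 Treg and T cell identity genes in the table, 9 were present in every library except WT3, which had 7 and in which Foxp3, the lineage factor, was at 8.22 RPM (326 to 690 RPM elsewhere) and Cd3g at 1.42 RPM. The summed level of this list was 2893 RPM in WT3, 3454 and 4923 RPM in the other WT libraries and 3832 to 4633 RPM in MOG KO. Of 9 B and plasma cell markers 3 were present in any library (Cd79b, Ms4a1 and Igj, with Cd79a and Pax5 at 0 in all 6), and their sum was 13.6 to 207 RPM across WT and 0 to 131 RPM across MOG KO libraries. Of 13 myeloid and dendritic cell markers only Cst3 was present in any library, and they summed to 25.0 to 179 and 15.7 to 123 RPM. The 7 CD8 T cell and natural killer markers were at or near 0, with at most 0.231 RPM in sum. The 5 erythroid markers in the table, 3 of them present in any library, summed to 69.7 to 151 RPM across WT and 20.6 to 67.5 RPM across MOG KO libraries, and 7 stromal and endothelial markers, of which only Pecam1 was present, to 2.27 to 97.1 and 31.6 to 461 RPM. The part of these markers in the results below was not tested.

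Cell cycle genes were read in every library, but in a different combination in each. Of 32 genes, WT1, WT2 and WT3 held 8, 19 and 18 and KO1, KO2 and KO3 held 8, 15 and 7. The mean was 15 ± 6.08 genes in WT and 10 ± 4.36 in MOG KO (SD, n = 3 per group), and the ranges overlapped. In bulk RNA, fewer cycling cells and less RNA per cycling cell cannot be told apart. A gene was mostly either clearly read or near 0. Of 192 values, 75 were at 10 RPM or more, 61 of those at 100 RPM or more, 111 were under 3 RPM and 6 lay between 3 and 10 RPM. No gene was present in all 6 libraries, and 2 (Mki67 and Top2a) were present in 5. There were 5 present in 4, 6 in 3, 9 in 2 and 9 in 1, and Bub1 was in none. Over all 7909 genes present anywhere, 8.9% were present in all 6 libraries and 32.1% in 1.

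**Figure D1:**
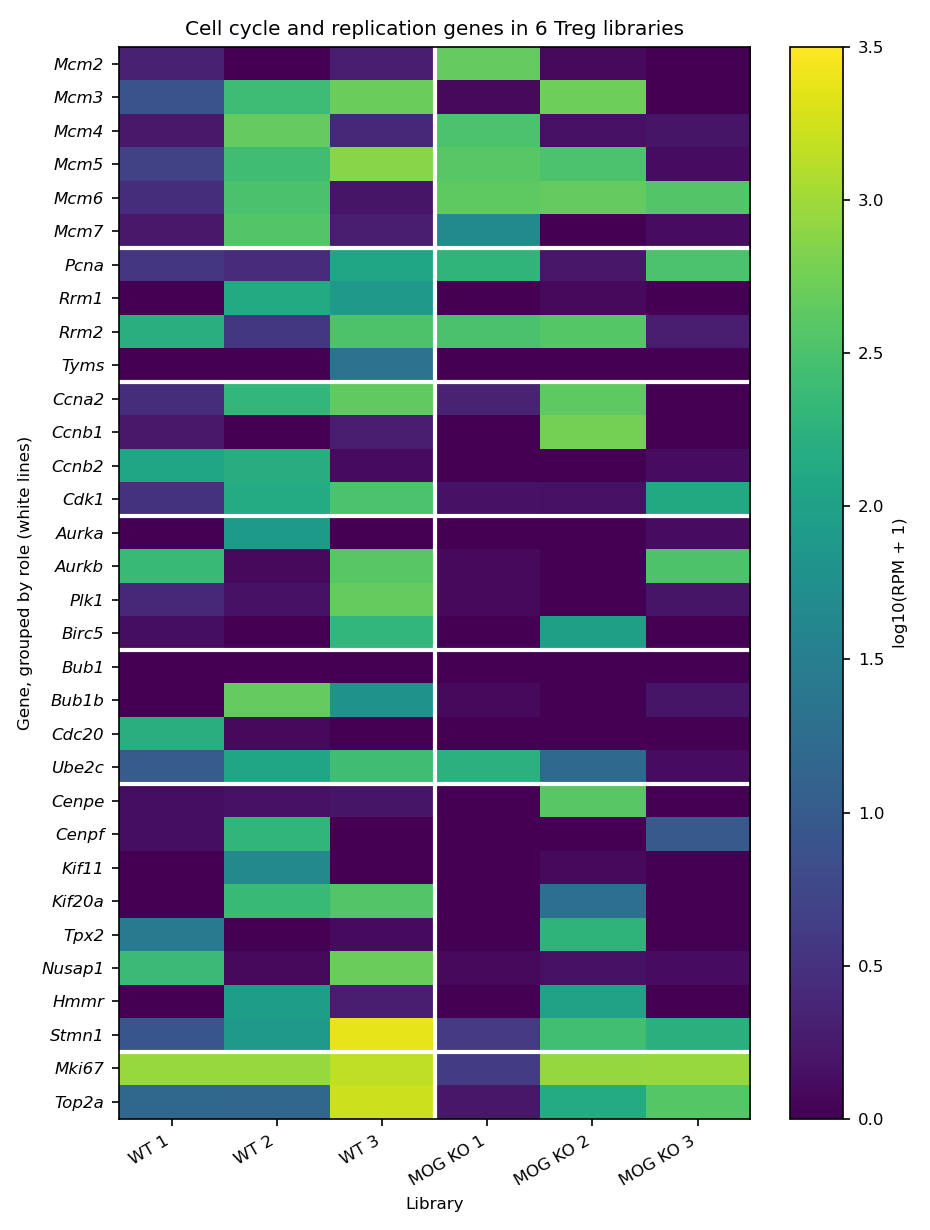
Level of each of the 32 genes (rows, grouped by role) in each library (columns), as log10 of RPM plus 1. Bright and dark cells alternate within most rows, and only Mki67 and Top2a are at 10 RPM or more in 5 of 6 libraries.

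**Figure D2:**
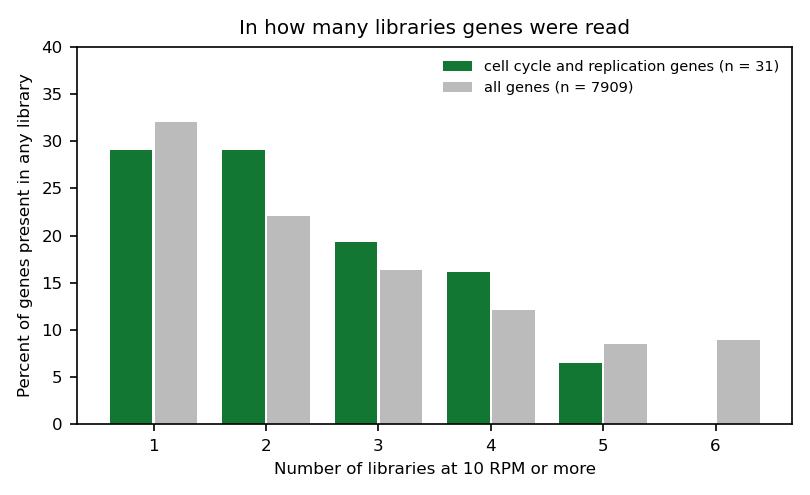
Share of genes (percent of those present in any library) by the number of libraries in which they were at 10 RPM or more, for the 31 cell cycle and replication genes present and all 7909 genes. None of the 31 reaches 6 libraries, against 8.9% of all genes.

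Replication and mitosis genes were read in different proportion from library to library. KO1 held 7 of 10 replication genes and 1 of 22 mitosis and chromosome genes (Ube2c), and WT1 held 1 of 10 (Rrm2) and 7 of 22. WT2 held 6 and 13, WT3 held 6 and 12, KO2 held 4 and 11, and KO3 held 2 and 5. In summed level, the replication genes were at 177, 1789.8 and 1797 RPM in WT1 to WT3 and at 2134, 1692 and 687 RPM in KO1 to KO3. The mitosis and chromosome genes were at 1723, 2726 and 8543 RPM and at 181, 3126 and 1929.5 RPM. Without Mki67, Stmn1 and Top2a, the mitosis and chromosome sums were 786, 1724 and 3014.5 RPM in WT1 to WT3. They were 174, 1821 and 478 RPM in KO1 to KO3, so these genes made up much of the sums of WT3 and KO3. KO1 was thus the library of highest replication sum and of lowest mitosis sum, the latter with or without those genes. Both measures overlapped between genotypes.

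**Figure D3:**
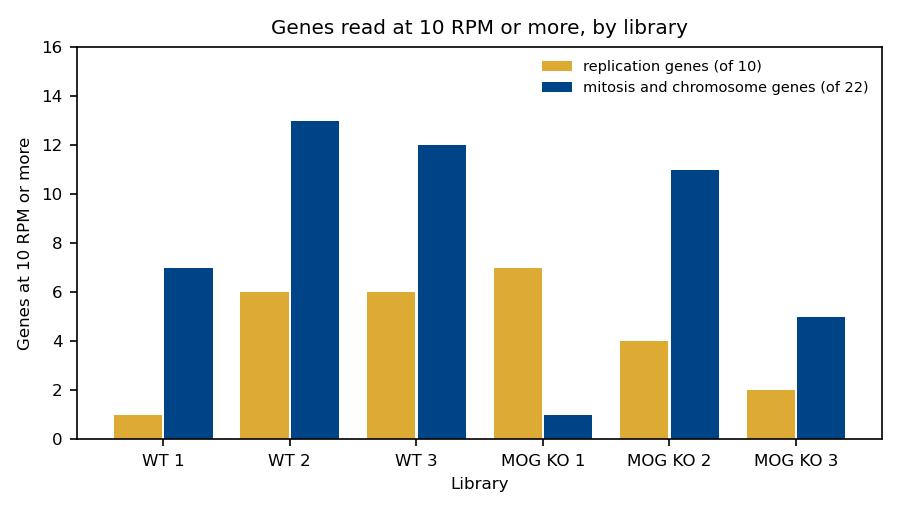
Number of the 10 replication genes and of the 22 mitosis and chromosome genes at 10 RPM or more in each library. KO1 has 7 replication genes and 1 mitosis gene, while WT1 has 1 and 7.

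All 6 Mcm genes encode subunits of 1 ring, the replicative helicase, and no library held all 6. WT2 and KO1 held 5 each, KO2 held 3, WT3 held 2, KO3 held 1 and WT1 held 0. Mcm2 (chromosome 6, 88883474 to 88898780, GRCm38 as for all positions here) was read in KO1, at 453 RPM, against 1.10, 0 and 0.850 RPM in WT1 to WT3 and 0.229 and 0 RPM in KO2 and KO3. WT2 lacked only Mcm2, and KO1 lacked only Mcm3. Mcm3 (chromosome 1, 20802968 to 20820312) had 6.99, 251 and 497 RPM in WT1 to WT3 and 0.231, 537 and 0 RPM in KO1 to KO3. Mcm4 (chromosome 16, 15623897 to 15637400) had 0.736, 458 and 1.42 RPM in WT1 to WT3 and 318, 0.459 and 0.580 RPM in KO1 to KO3. Mcm7 (chromosome 5, 138164583 to 138172422) was read in the same pair of libraries, with 0.736, 366 and 0.850 RPM in WT1 to WT3 and 44.6, 0 and 0.290 RPM in KO1 to KO3. Its exons overlap those of Ap4m1 and Cops6 on the other strand, and reads of overlapping genes cannot be told apart where strand is not known.

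Mcm6 was the helicase gene whose genotypes did not overlap. Mcm6 (chromosome 1, 128331590 to 128359664) was at 1.84, 307 and 0.567 RPM in WT1 to WT3 and at 425, 456 and 361 RPM in KO1 to KO3. All MOG KO libraries lay above all WT libraries, as for 5.97% of the 4088 genes tested. The log2 fold change, MOG KO minus WT, was 2.03 ± 2.22 (SE, n = 3 per group) and its 95% interval ran from -3.13 to 7.19, so it did not pass the test (adjusted p = 1 in edgeR). With 1 library left out it ranged from 1.44 (without WT1) to 8.36 (without WT2, the WT library that held Mcm6), and it never passed the threshold. Mcm5 (chromosome 8, 75109569 to 75128439) was at 3.68, 265 and 757 RPM in WT1 to WT3 and 388, 326 and 0.290 RPM in KO1 to KO3. Its groups overlapped, with a log2 fold change of -0.68 ± 2.22, which was 0.88 without WT3. Mcm5 and Mcm6 share E2F letters in the promoters printed above. WT3 held Mcm5 at 757 RPM with Mcm6 at 0.567 RPM, and KO3 held Mcm6 and not Mcm5.

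Genes of the clamp and of nucleotide supply were scattered likewise. Pcna, the sliding clamp (chromosome 2, 132249162 to 132253314), had 2.58, 1.79 and 115 RPM in WT1 to WT3 and 196, 0.688 and 325 RPM in KO1 to KO3, a log2 fold change of 1.94 ± 2.57. With 1 library left out it ranged from 1.02 (without KO3) to 6.31 (without WT3, the WT library that held Pcna). Rrm2, the small subunit of ribonucleotide reductase (chromosome 12, 24708241 to 24714146), had 159, 2.68 and 329 RPM in WT1 to WT3 and 309, 371 and 0.869 RPM in KO1 to KO3 (0.32 ± 2.26). Its partner Rrm1, the large subunit, was read at 138 RPM in WT2 and 76.2 RPM in WT3. It had 0 counts in WT1 and 1 count over the 3 MOG KO libraries. Both subunits were present together in WT3 only, although the enzyme needs both. Tyms, thymidylate synthase, was read in WT3 only, with 68 counts (19.3 RPM).

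Cdk1 was present with at least 1 of its cyclins in WT2 and WT3, and no library held all 4 genes. Cdk1, the kinase of mitotic entry (chromosome 10, 69335146 to 69352938), had 2.21, 142 and 325 RPM in WT1 to WT3 and 0.462, 0.459 and 131 RPM in KO1 to KO3 (log2 fold change -1.93 ± 2.72). Ccna2, cyclin A2 (chromosome 3, 36564865 to 36572150), had 1.84, 209 and 436 RPM and then 1.16, 429 and 0 RPM (-0.69 ± 2.86). High and low libraries occurred in both genotypes for each. The B cyclins were never read in the same library, with Ccnb2 at 115 and 151 RPM in WT1 and WT2 and at 0.290 RPM or less in the other 4, and Ccnb1 at 586 RPM in KO2 and at 0.850 RPM or less elsewhere. WT2 held Cdk1, Ccna2 and Ccnb2, and WT3 held Cdk1 and Ccna2. KO2 held Ccna2 and Ccnb1 with Cdk1 at 0.459 RPM, KO3 held Cdk1 with none of the 3 cyclins, and KO1 held none of the 4.

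The mitotic kinases were each read in 3 libraries or fewer. Aurkb, the kinase of the chromosomal passenger complex (chromosome 11, 69045647 to 69051664), had 229, 0.224 and 387 RPM in WT1 to WT3 and 0.231, 0 and 337 RPM in KO1 to KO3 (-0.96 ± 3.10). Birc5, survivin, a partner of Aurkb in that complex, was present in WT3 (206 RPM) and KO2 (96.1 RPM), so that WT3 was the library holding both. Aurka, the spindle pole kinase, was read at 80.0 RPM in WT2 alone, and its activator Tpx2 at 27.6 RPM in WT1 and 185 RPM in KO2, never in the same library. Plk1, a kinase of spindle assembly and mitotic exit, was at 466 RPM in WT3 and at 1.47 RPM or less in the other 5.

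Of 4 genes of the spindle checkpoint and the anaphase-promoting complex, no library held more than 2. Bub1, a checkpoint kinase, had 0 counts in all 6 libraries. Its paralogue Bub1b, which encodes BubR1, was at 459 RPM in WT2 and 62.6 RPM in WT3. It had 0 counts in WT1 and 3 counts over the MOG KO libraries. Cdc20, the activator that the checkpoint inhibits, was at 157 RPM in WT1. It had 1 count in WT2, 0 in WT3 and 0 in MOG KO. Ube2c, the ubiquitin-conjugating enzyme of the complex (chromosome 2, 164769898 to 164778822), was present in 4 libraries. It had 9.20, 116 and 262 RPM in WT1 to WT3 and 172, 15.1 and 0.290 RPM in KO1 to KO3 (-1.24 ± 2.37), overlapping between genotypes.

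Among spindle and kinetochore genes, Stmn1 reached the highest level of all 32 genes and did so in WT3. Stmn1, stathmin, destabilises microtubules (chromosome 4, 134468320 to 134473843). Its level was 2357 RPM in WT3, against 7.73 RPM in WT1 and 78.0 RPM in WT2, while KO1 to KO3 had 2.77, 271 and 165 RPM. KO2 and KO3 lay above WT1 and WT2, and the log2 fold change of -2.63 ± 2.07 turned to 1.82 without WT3. Kif20a, a kinesin of cytokinesis (chromosome 18, 34624613 to 34633277), was present in WT2 and WT3 (229 and 366 RPM) and at 17.9 RPM in KO2, with 0 counts in the other 3 libraries (-5.13 ± 3.60). It had the smallest unadjusted p of the 13 genes of the set that could be tested, and an adjusted p of 1 in edgeR. Nusap1, a spindle protein, was at 241 RPM in WT1 and 500 RPM in WT3. It had 1 count in WT2 and 4 counts over the MOG KO libraries.

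The kinetochore and motor genes that remain were read in 1 or 2 libraries each. Cenpe, a kinetochore kinesin, was read in KO2 at 387 RPM, and Cenpf in WT2 at 203 RPM, with 8.40 RPM in KO3. Kif11, the motor that separates spindle poles, was at 43.2 RPM in WT2 alone. Hmmr, a spindle-associated receptor of hyaluronan, was at 90.8 RPM in WT2 and 104 RPM in KO2.

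Mki67, which encodes the proliferation marker Ki-67, was the most evenly read of the set, with 1 exception. Mki67 (chromosome 7, 135689784 to 135716361) had 915, 910 and 1441 RPM in WT1 to WT3 and 3.24, 894 and 907 RPM in KO1 to KO3. Its groups did not overlap, but the lowest WT and the highest MOG KO library were 3.07 RPM apart, and 4.57% of genes tested had every WT library above every MOG KO library. The log2 fold change was -0.91 ± 1.35 (SE, n = 3 per group), its 95% interval ran from -4.05 to 2.23 (adjusted p = 1 in edgeR), and the value was -0.33 without KO1. In KO1, where Mki67 was near 0, total counts were 4327491, the third highest of 6, and 9 of 9 identity genes were present. KO1 also had the fewest genes with any count, 6527 against 6960 to 9008 elsewhere. It had 14 of the 32 genes at 0, as did KO3, more than the other libraries. Why Mki67 was low in KO1 was not tested. Top2a, topoisomerase II alpha, which untangles chromosomes (chromosome 11, 98992943 to 99024189), had 14.0, 13.2 and 1729.9 RPM in WT1 to WT3 and 0.693, 139 and 378 RPM in KO1 to KO3. It followed Stmn1 in that WT3 was highest and WT1, WT2 and KO1 lowest, and its value of -1.92 ± 2.28 became 3.68 without WT3.

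**Figure D4:**
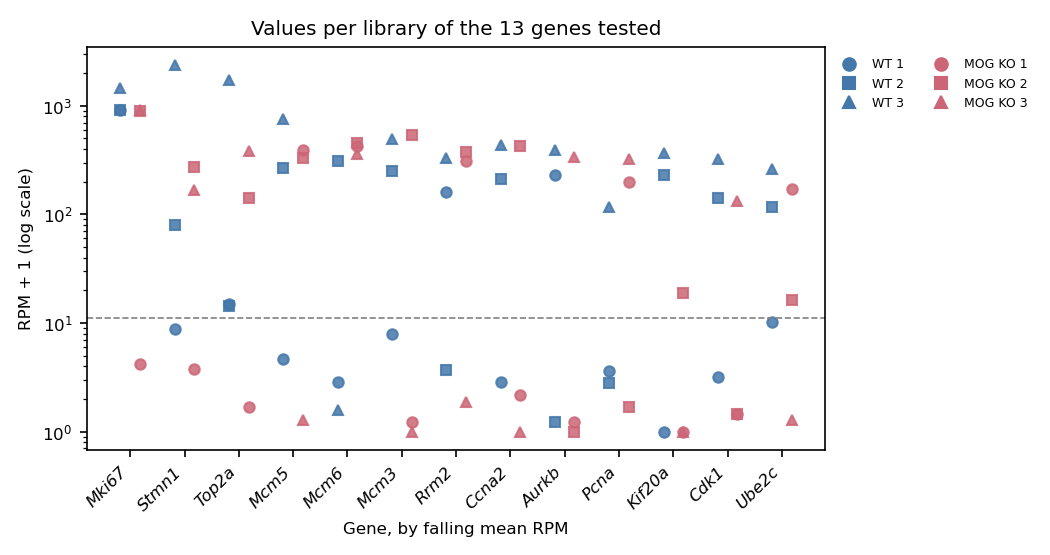
RPM plus 1 on a log axis for the 13 genes that entered the edgeR test, by library (colour for genotype, symbol for replicate), with a dashed line at 10 RPM. Mki67 lies between 894 and 1441 RPM in 5 libraries, and for most other genes points of both genotypes lie both above and below the line.

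No cell cycle gene passed the test of genotype across all genes. Of the 32 genes, 13 had enough counts to be tested in edgeR and 19 did not, and 0 of 13 passed an adjusted p of 0.05, where 0 of all 4088 genes tested (0%) passed. At an unadjusted p under 0.05 there were 0 of 13, against 5.11% of all genes tested. The SE of the 13 ranged from 1.35 (Mki67) to 3.60 (Kif20a) on the log2 scale, so that only very large differences could have been told from the spread. Lower values in MOG KO were seen for 10 of 13, and the 3 higher were Mcm6, Pcna and Rrm2, all replication genes. The other replication genes tested, Mcm3 (-0.59) and Mcm5 (-0.68), were lower. Among all genes tested 47.9% had lower values. The median log2 fold change was -0.91 for the 13 and 0.06 for all genes tested. It rested on WT3. Without that library 19 members could be tested, 9 of them lower, with a median of 0.03 beside 0.15 for all genes. The summed level of the 32 genes was 1899.9, 4516 and 10340 RPM in WT1 to WT3 and 2315, 4818 and 2617 RPM in KO1 to KO3. The mean was 5585 ± 4321 RPM for WT and 3249.9 ± 1366 RPM for MOG KO (SD, n = 3 per group). They differed by -2335 RPM, and by 42.2 RPM in the opposite direction without WT3. WT3 was the library with the fewest genes present, and with Foxp3 and Cd3g below 10 RPM.

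**Figure D5:**
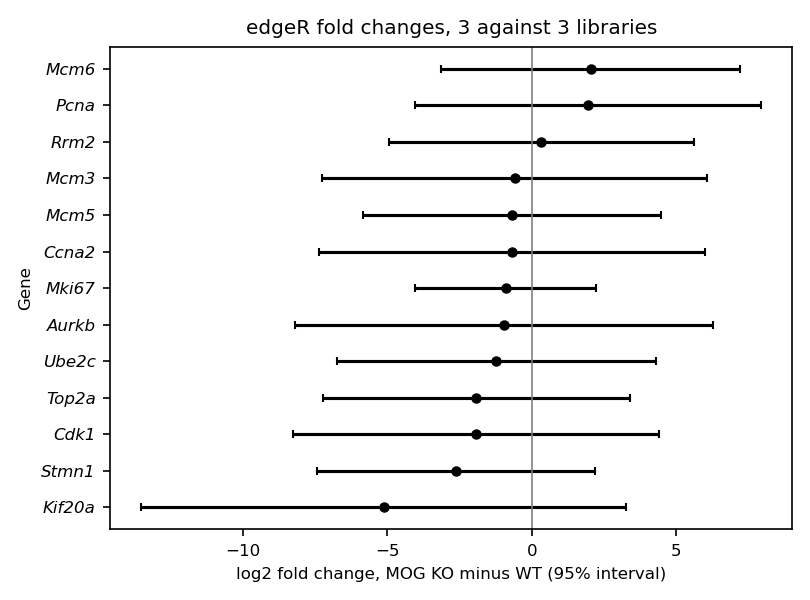
Log2 fold change (MOG KO minus WT) with its 95% interval from edgeR for the 13 genes tested, sorted by value. All 13 intervals include 0, and those of Mki67 and Kif20a are the narrowest and the widest.

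More of the genes were read in WT only than in MOG KO only, which was also so over all genes. There were 10 genes present in at least 1 WT library and in no MOG KO library (Rrm1, Tyms, Ccnb2, Aurka, Plk1, Bub1b, Cdc20, Cenpf, Kif11 and Nusap1), 32.3% of the 31 present, where 24.2% of all genes present were of this kind. In the reverse direction there were 3 (Mcm2, Ccnb1 and Cenpe), or 9.68%, against 18.4% of all genes. Of the 10, 6 rested on 1 WT library, and all 3 in the reverse direction on 1 MOG KO library. DESeq2, run as an alternative, gave an adjusted p to 16 of the 32 genes and put 5 past the threshold, all lower in MOG KO, where 10.1% of all genes with an adjusted p were called lower and 5.79% higher. They were Tyms (adjusted p = 5.10e-07), Nusap1 (0.00223), Ccnb2 (0.00695), Bub1b (0.0106) and Rrm1 (0.0113) in DESeq2. The smallest of these p-values belonged to Tyms, whose 68 counts all came from WT3. None of the 5 had enough counts in enough libraries to be tested in edgeR, and edgeR without a filter on low counts put 0 of 31 past the threshold.

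Levels were compared between genes per kilobase of annotated exon, since longer transcripts give more reads. On this scale the mean level over 6 libraries was 336 RPM per kb for Stmn1, 89.1 for Rrm2, 84.0 for Mki67, 83.8 for Mcm5, 81.3 for Aurkb, 72.6 for Top2a, 71.1 for Mcm3 and 70.3 for Pcna. These neighbours in the order cannot be separated, given that each was under 10 RPM in at least 1 library. The lead of Stmn1 rested on WT3, at 1647 RPM per kb against 1.94 to 190 in the other 5 libraries. The lowest of those present anywhere were Tyms at 1.02, Kif11 at 1.5 and Cenpf at 3.17 RPM per kb. Mki67, first by RPM, thus stood beside Rrm2 and Mcm5 once its 10061 bases of exon were taken into account.

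Other genes of the same pathways were taken from lists drawn up by function. Of 43 further replication genes, 34 were present in at least 1 library and 7 could be tested, of which 0 passed and 7 had lower values in MOG KO (median log2 fold change -1.56). Lower values were seen for 47.9% of all genes tested. The count of 7 was not repeated without WT3, the library on which the median of the cell cycle set rested. Rpa2, a subunit of the single-strand binding protein RPA, had 247, 126 and 313 RPM in WT1 to WT3 and 0, 0 and 0.580 RPM in KO1 to KO3 (-10.10 ± 2.95, adjusted p = 0.602 in edgeR). It passed in DESeq2 (adjusted p = 0.0019), and in limma-voom the adjusted p was 0.14. Its genotypes did not overlap, as for 4.57% of genes tested with WT higher. Dnmt1, the methyltransferase that copies DNA methylation at the fork, had 63.7, 519 and 1048 RPM and then 1.16, 13.1 and 136 RPM (-3.52 ± 2.00). Cdt1, which loads the Mcm ring, was at 456 RPM in WT3 and 92.6 RPM in KO2 and under 10 RPM elsewhere.

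Of 43 further mitosis genes, 13 could be tested, 0 passed, 3 had higher and 10 lower values (median -1.58). Lower values were seen for 47.9% of all genes tested, and the count of 10 was not repeated without WT3. Of the 34 genes of this list present in any library, 3 were present in all 6, and of the 31 present among the 32 genes 0 were. Over all genes present anywhere the share was 8.9%. H2afz, a histone variant gene, had 291, 683 and 2773 RPM in WT1 to WT3 and 588, 1099 and 452 RPM in KO1 to KO3 (-0.95 ± 0.84). Hmgb2, a chromatin protein of dividing cells, had 210, 261 and 1906 RPM and then 201, 455 and 228 RPM (-1.58 ± 1.01). For both genes WT3 was the highest library, as it was for Stmn1, Top2a and Mki67, and the remaining 5 libraries of both genotypes overlapped. Smc4, a condensin subunit, had 334, 474 and 333 RPM and then 349.9, 32.6 and 375 RPM (-0.65 ± 1.29).

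Upstream of these, 5 of 20 genes of G1 cyclins, kinases and E2F factors could be tested, 0 passed, 2 were higher and 3 lower (median -0.19). Ccnd3, cyclin D3, was present in all libraries at 439, 240 and 58.1 RPM in WT1 to WT3 and 224, 439 and 384 RPM in KO1 to KO3 (0.50 ± 1.31). Ccnd2, cyclin D2, had its lowest value in WT3, at 3.12 RPM, and 166 to 856 RPM in the other 5 (2.21 ± 1.42). All MOG KO libraries of Ccnd2 lay above all WT libraries, as for 5.97% of genes tested. Rb1, the retinoblastoma protein gene, was at 837 RPM in WT3 and 297 RPM in KO1 and under 10 RPM elsewhere. Of 20 inhibitors and quiescence genes, 12 could be tested, 0 passed, 5 were higher and 7 lower (median -0.07). Over all genes tested, 47.9% were lower. Btg1, an antiproliferative gene of resting lymphocytes, was the steadiest gene named here, at 586, 512 and 588 RPM in WT1 to WT3 and 534, 611 and 576 RPM in KO1 to KO3 (-0.04 ± 0.52, 95% interval -1.24 to 1.16). Klf2, a factor of quiescent T cells, had 155, 225 and 416 RPM and then 222, 222 and 178 RPM (-0.46 ± 1.41). Rbl2, the pocket protein p130 of the DREAM complex, had 748, 859 and 1313 RPM in WT1 to WT3 and 0.462, 0.688 and 563 RPM in KO1 to KO3 (-2.42 ± 2.13). All WT libraries of Rbl2 lay above all MOG KO libraries, as for 4.57% of genes tested. With 1 library left out its log2 fold change ranged from -10.73 (without KO3, adjusted p = 0.0659 in edgeR) to -1.84 (without KO2). KO3 was the MOG KO library that held Rbl2, so the larger difference without it follows from that choice of library. In limma-voom the log2 fold change was -7.14 (adjusted p = 0.61).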

How the data were processed

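RNA of 500 Tregs per library was made into cDNA with SMARTer V3, put through 15 PCR cycles and read as 100-base single reads, per the labels' protocols. There are no molecular identifiers, so floors cover counting error only. The deposited table of counts holds whole reads in exons per gene, and the deposited RPM table is those counts over each column's total (differences under 1e-06). STAR 2.3.1, R 3.2.2 and mm10 are named per the submitters' processing notes. The sources used here do not give the counting tool, gene models or strand setting, so overlapping genes may share reads, which concerns 8 of the 32 genes (Mcm7, Ccna2, Plk1, Cdc20, Ube2c, Kif20a, Nusap1 and Stmn1).

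Testing used edgeR 4.0.16 (R 4.3.3) on 4088 genes kept by filterByExpr, with TMM scaling, a robust quasi-likelihood fit on genotype and Benjamini-Hochberg adjustment at 0.05. SE is the absolute log2 fold change over the root of F. On simulated counts for this comparison, edgeR recovered 100% of 4-fold changes at low spread (4085 genes, 12 false calls), and at the spread of these libraries (3798 genes, 1 false call) 0% of 4-fold and 15.2% of 64-fold changes. The simulated counts were drawn around 1 mean per gene and genotype, whereas values here were mostly either clearly read or near 0. Changed genes that the filter removed were not counted, so these shares are not the recovery to be had in these data. Alternatives were DESeq2 1.42.0, limma-voom (limma 3.58.1), DESeq2 size factors, other filters and presence thresholds, a replicate block and leaving out each library. Positions and exon lengths are from GENCODE vM21 on GRCm38, the assembly of mm10.

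The genes and lists were chosen with earlier results of these data known. All 32 are named, with full values where present in at least 5 libraries, of unadjusted p under 0.1, among the 10 of highest mean RPM, or in the Mcm ring. Those of Pcna, Cdk1, Ube2c and Kif20a were added after their values were seen. Of each other list up to 3 are named, those present in all 6 libraries first, then by smallest p.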

Additional observations from a re-analysis of the deposited data

How the results depend on the processing

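Over all genes and over the 32 cell cycle and replication genes, 0 passed the threshold in edgeR in the fit reported, with DESeq2 size factors, with either other filter, in the replicate block, in limma-voom and without each library in turn (0 to 0). DESeq2 was the exception, with 744 genes past the threshold and 5 of the 32. The cause was not tested. The median log2 fold change of members tested moved from -0.91 to -2.82 in limma-voom and ranged from -2.13 (without KO2) to 0.035 (without WT3) when 1 library was left out. The summed level differed by -4178 to 42.2 RPM between genotypes when 1 library was left out, the latter without WT3, and kept its direction with TMM scaling (-3271 RPM) and without Stmn1 (-1667 RPM). The difference in genes present, -5 in the mean, was -8.5 to -3 without single libraries, -5.67 at a threshold of 3 RPM and -4.33 at 30 RPM. Of 78 values of single members under other tools and filters, 76 kept their sign, the others being Mcm5 in the replicate block (0.29) and Rrm2 in DESeq2 (-0.073). Among 78 values with 1 library left out, 9 changed sign. The ranges of these genes were -10.85 to 0.54 for Mcm3, -1.20 to 0.88 for Mcm5, -0.31 to 1.51 for Rrm2, -8.64 to 0.51 for Ccna2, -4.17 to 0.035 for Ube2c, -3.46 to 1.82 for Stmn1 and -3.25 to 3.68 for Top2a. Those of Mcm6 (1.44 to 8.36), Pcna (1.02 to 6.31), Cdk1 (-8.46 to -0.69), Aurkb (-10.62 to -0.04), Kif20a (-12.63 to -4.19) and Mki67 (-1.32 to -0.33) kept theirs. For 13 further genes named with a log2 fold change, 6 of 156 values changed sign, all of H2afz, Hmgb2, Btg1 and Klf2. With 1 library left out they ranged from -1.45 to 0.59 for H2afz, -2.08 to 0.36 for Hmgb2, -0.11 to 0.088 for Btg1 and -0.72 to 0.16 for Klf2, each highest without WT3. Other wide ranges were -10.73 to -1.84 for Rbl2, -7.56 to -1.19 for Racgap1, -6.34 to -2.52 for Dnmt1, -3.14 to -1.43 for Prc1, -1.08 to -0.12 for Smc4 and 0.063 to 1.21 for Ccnd3. Btg1 was also above 0 without KO1 (0.0475) and in limma-voom (0.037). Of these 13, Rpa2 and Aspm passed the threshold in DESeq2, and in no other alternative run.

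Replicate numbers do not mark a shared mouse or day in the labels. Same-numbered WT and MOG KO libraries had deviations correlated at -0.022, -0.002 and -0.018 over the genes tested, and the replicate block gave a median of -1.64 with 9 of 13 members lower. With 0 counts allowing up to 1.10 RPM in the shallowest library, genes listed at 0 are not shown to be absent.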

Other observations

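Some mitosis genes outside the 32, singled out after their values were seen, are partners of genes described above. Aspm, a spindle pole protein, had 744, 141 and 106 RPM in WT1 to WT3 and 0, 0.459 and 0.290 RPM in KO1 to KO3 (log2 fold change -10.20 ± 2.74, adjusted p = 0.602 in edgeR). It passed in DESeq2 (adjusted p = 0.0012), and in limma-voom the adjusted p was 0.14. All WT libraries of Aspm lay above all MOG KO libraries, as for 4.57% of genes tested. Incenp, the scaffold of the complex of Aurkb and Birc5, was at 810 RPM in WT3 and at 8.05 RPM or less in the other 5 libraries. Cdca8, borealin, a further subunit, was at 145 RPM in WT2 and 470 RPM in WT3 and at 0.693 RPM or less elsewhere. WT3 was the library in which these 4 genes were read together. Prc1, a midzone protein, had 369, 444 and 637 RPM in WT1 to WT3 and 1.85, 111 and 261 RPM in KO1 to KO3 (-2.01 ± 1.65, adjusted p = 1 in edgeR), and Racgap1, which acts in cytokinesis, 312, 400.4 and 553 RPM and then 1.16, 379 and 3.48 RPM (-1.78 ± 2.09, adjusted p = 1 in edgeR). All WT libraries of Prc1 lay above all MOG KO libraries, as for 4.57% of genes tested, and the genotypes overlapped for Racgap1. With 1 library left out, the log2 fold change of Racgap1 ranged from -7.56 (without KO2, the MOG KO library that held it) to -1.19 (without KO3). Prc1 and Racgap1 were lowest in KO1, the library in which 21 of 22 mitosis and chromosome genes, Mki67 among them, were below 10 RPM. Pttg1, securin, was read in KO1 nonetheless, as were Cenpa, Bub3 and Smc4 (349.9 RPM). So were H2afz (588 RPM), Smc2 (315 RPM), Tubb4b (286 RPM) and Hmgb2 (201 RPM). Pttg1, Cenpa and Bub3 were the 3 further mitosis genes tested that had higher values in MOG KO. Pttg1 had 53.0, 0.224 and 1.13 RPM in WT1 to WT3 and 98.7, 152 and 167 RPM in KO1 to KO3. All its MOG KO libraries lay above all WT libraries, as for 5.97% of genes tested. Cenpa had 0.736, 207 and 29.5 RPM and then 208, 235 and 29.3 RPM. Bub3 had 1.10, 194 and 0.567 RPM and then 199, 209 and 0.869 RPM. Both overlapped between genotypes.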
